A study of Mus musculus with 6 samples.

Results

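Pde10a, Ppp1r1b, Adora2a, Drd2, Rgs9, Adcy5, Penk, Tac1 and Pdyn are commonly used as markers of striatal projection neurons, and they were examined here in RNA sequenced from dissected mouse cortex. They were chosen by gene symbol, and all 9 were found among the 24972 genes of the deposited table. The set was proposed with the values of these same libraries in view, wildtype replicate 1 set apart, so the levels below are a description and the calls for these 9 genes are not independent evidence. RNA came from cortices at postnatal day 7 (P7), in 3 libraries from Zmiz1f/f mice, the wildtype group, and 3 libraries from Zmiz1f/f;Emx1Cre mice, the Zmiz1-KO group. Mice of both groups thus carried the floxed Zmiz1 allele, and the Zmiz1-KO mice also carried Cre driven from Emx1, a gene of dorsal forebrain progenitors and the excitatory neurons and glia they produce. The methods give 3 dissections per genotype, with sex and litter not stated in the sources used here, so p values measure only the spread between these samples.

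Striatal projection neurons are GABAergic cells that make up most of the striatum, the deep nucleus below the cortex, and they arise largely from the ganglionic eminence rather than from Emx1-expressing cortical progenitors. They form a direct pathway, whose neurons carry the D1 dopamine receptor and release substance P and dynorphin, and an indirect pathway, whose neurons carry the D2 dopamine receptor and the adenosine receptor encoded by Adora2a and release enkephalin. Dopamine and adenosine act in both cell types by raising or lowering cyclic AMP, which Adcy5 makes, Pde10a breaks down and Ppp1r1b (DARPP-32) relays to protein phosphatase 1. The same peptides and several of the signaling genes are also expressed by cortical neurons, so none of the 9 genes is exclusive to the striatum.

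The libraries were of similar size, with an estimated 15494272 to 17857835 counted reads each, and the deposited values are counts normalized between libraries. Zmiz1 itself was not lower under the label of its deletion. Its normalized counts were 8119, 7929 and 7461 for wildtype replicates 1 to 3 against 9944, 9779 and 9660 under the Zmiz1-KO label, and a value per gene cannot tell transcripts with the floxed part from those without. Directions below therefore refer to the libraries labelled Zmiz1-KO. Xist was high in 1 library of each group. Of the 10 cortical excitatory genes listed, the vesicular glutamate transporter Slc17a7 had 18675 to 20879 normalized counts, with the highest in wildtype replicate 1. It does not stand for that list. The log2 fold change between groups was -5.46e-06 for Slc17a7 and had a median of -0.12 over the list.

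Wildtype replicate 1 stood apart. All 9 markers had their lowest value there, whereas wildtype replicate 1 was the lowest library for 20.1% of the 15800 tested genes. On the log2(value + 1) scale its difference from the median of the other 5 libraries ran from -0.82 for Penk to -0.11 for Adcy5, with a median of -0.61 over the 9 genes and 0.00 over all tested genes. For Penk, Drd2, Tac1, Adora2a and Ppp1r1b the gap between wildtype replicate 1 and the next library was larger than the whole range of the other 5, and for Pde10a, Adcy5, Rgs9 and Pdyn it was smaller. The library lay at least 20% below that median for 7 of the 9, all but Rgs9 and Adcy5, and for 9.08% of tested genes. Since these values are what set the genes apart, they carry no test. In a bulk library, fewer striatal neurons, less RNA per neuron and a lower level in other cells that express these genes cannot be told apart.

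Other gene lists differed in the same library. Cortical excitatory genes went the other way, and 7 of 10 had their highest value in wildtype replicate 1, against 21.4% of all tested genes, with a summed level of 45777 normalized counts there and 39584 to 42243 elsewhere. Genes listed for GABAergic interneurons, some of which striatal projection neurons share, were low, with 12 of 14 tested at their lowest and a sum of 21955 against 24220 to 29608. The 4 genes of striatal cholinergic interneurons summed to 156 in wildtype replicate 1 and to 276 to 375 in the other libraries, and 3 of the 4 were lowest there. Among them, the vesicular acetylcholine transporter Slc18a3 had 19.7 normalized counts against 75.5 to 101, and the transcription factor Lhx8 had 27.9 against 76.9 to 147. The gene of this list that was not lowest there, Slc5a7, had 92.9 against 80.5 to 119. The choroid plexus genes summed to 247 in wildtype replicate 1, but also to only 324 in replicate 2 labelled Zmiz1-KO, where the striatal markers were high, and to 3151 to 8302 in the remaining 4 libraries. Ttr, the transthyretin gene, had 98.8 and 89.8 normalized counts in those low libraries and 2874 to 7728 in the rest. Further list genes among the 10 with the largest difference in wildtype replicate 1 were the interneuron serotonin receptor Htr3a, with 26.1 normalized counts against 78.7 to 99.2, and the choroid plexus gene Clic6, with 47.9 against 106 to 242. Otx2, Folr1, Gbx2 and Drd3 were also among them, at 2.00 to 10.2 normalized counts in that library. Of the septal, thalamic and hippocampal lists of 5 genes each, 2 genes a list were lowest in wildtype replicate 1, against 20.1% of tested genes. Their median differences there were -0.22, -0.18 and -0.14, in ranges of -0.99 to 0.23, -1.64 to 0.12 and -0.92 to 0.34. The difference of -1.64 was that of Gbx2, a low gene with 5.90 normalized counts in wildtype replicate 1. The part of any of these tissues in the level of the 9 markers was not tested.

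**Figure D1:**
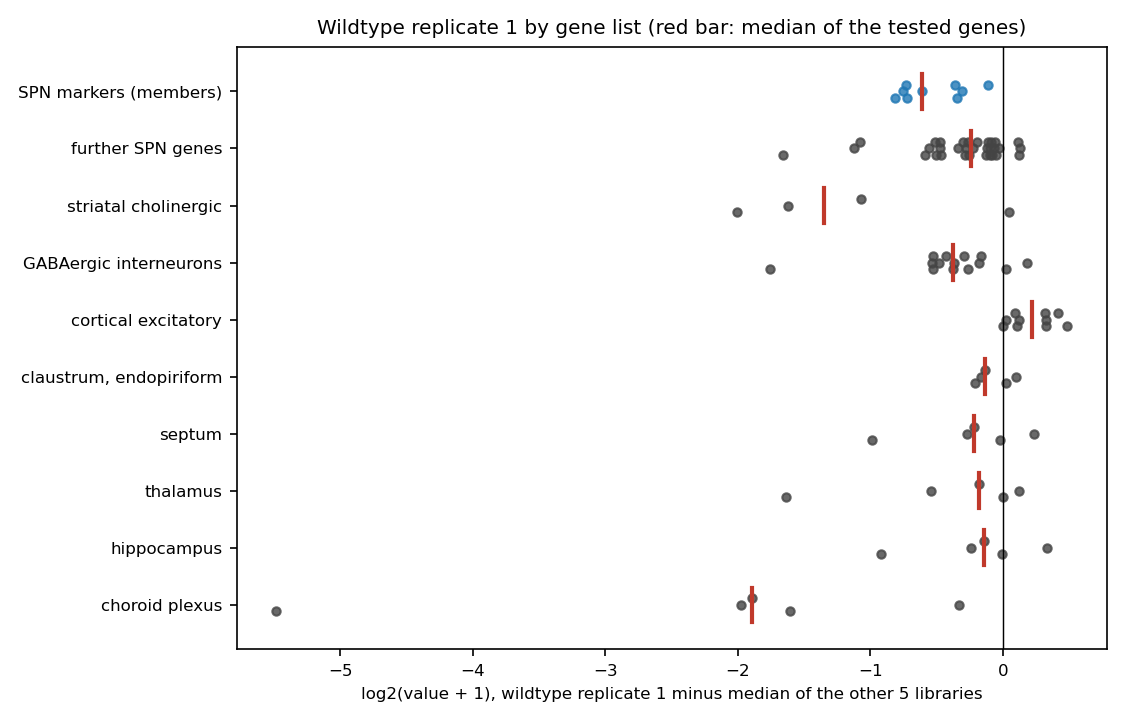
Difference on the log2(value + 1) scale between wildtype replicate 1 and the median of the other 5 libraries, for each tested gene of 10 lists (1 point a gene, red bars medians, SPN standing for striatal projection neuron). All 9 members lie below 0, with a median of -0.61, and the cortical excitatory genes lie at or above 0. Single genes reach lower than any member in the further SPN, striatal cholinergic, interneuron, septum, thalamus, hippocampus and choroid plexus lists.

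Setting the Zmiz1-KO-labelled libraries against wildtype, 1 of the 9 markers, Pde10a, had an adjusted p at or under 0.05, and it was higher under the Zmiz1-KO label. Over all 15800 tested genes, 0.165% were called higher and 0.411% were called in either direction (limma with Benjamini-Hochberg adjustment). All 9 markers had a positive log2 fold change, as did 49.9% of the tested genes. In 6 of them, Pde10a, Ppp1r1b, Adcy5, Adora2a, Drd2 and Penk, every library labelled Zmiz1-KO lay above every wildtype library, which held for 8.10% of the tested genes. Tac1, Pdyn and Rgs9 overlapped between the groups. The genes had been picked with these values known, so these shares describe them and support nothing further. For any 1 gene, an exact two-sided permutation test of 3 libraries against 3 gives no p below 0.1.

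Pde10a encodes a phosphodiesterase that breaks down cyclic AMP and cyclic GMP in the spines and axons of striatal projection neurons of both pathways. The gene lies on chromosome 17 of GRCm38 from 8525372 to 8986648 on the plus strand. Its normalized counts were 4712, 4980 and 5134 for the wildtype libraries, in replicate order, against 6290, 6868 and 5986 for those labelled Zmiz1-KO. The wildtype values lay close together and all below the other group. The mean rose from 4942 ± 214 to 6381 ± 448 (SD, n = 3 each). On the log2 scale that was 0.37 with a standard error of 0.051, at an adjusted p of 0.00303 by limma. With wildtype replicate 1 left out, the log2 fold change was 0.33 (standard error 0.053) and the limma adjusted p was 0.0160. In this gene wildtype replicate 1 was only 0.080 below the next library on the log2 scale.

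Adcy5 encodes the main adenylyl cyclase of the striatum, the enzyme that dopamine and adenosine receptors drive or hold back through G proteins. On chromosome 16 from 35154877 to 35305738, it measured 8026, 8313 and 8248 normalized counts for wildtype against 8981, 9180 and 8685 for the Zmiz1-KO label. The groups did not overlap, but the step between them was small. The estimated log2 difference of 0.13, with a standard error of 0.038, did not pass the threshold (limma adjusted p = 0.216). Without wildtype replicate 1 it was 0.11, with a limma adjusted p of 0.376, so the estimate of Adcy5 moved little when that library was removed.

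The dopamine receptor gene Drd2 and the adenosine receptor gene Adora2a belong to indirect-pathway neurons, where the Drd2 product inhibits and the Adora2a product stimulates the cyclase. Drd2, on chromosome 9 from 49340627 to 49408177, measured 382, 535 and 567 normalized counts for wildtype and 703, 730 and 644 for the other group, without overlap. These are the smallest values among the receptors and enzymes, with an estimated 190 reads behind the lowest. Drd2 had the largest log2 fold change of the 9, 0.50 with a standard error of 0.14 (limma adjusted p = 0.216), and 0.33 with a standard error of 0.086 (limma adjusted p = 0.196) once wildtype replicate 1 was left out. Adora2a, on chromosome 10 from 75316877 to 75334784, measured 826, 1191 and 1221 normalized counts for wildtype, all below the 1394, 1364 and 1371 of the Zmiz1-KO label. Its 3 values in the labelled group were nearly equal, while wildtype replicate 1 was 39.4% below the median of the other 5 libraries. With that library the log2 fold change of Adora2a was 0.37 and its limma adjusted p was 0.490, with a standard error of 0.16. Without it the estimate was 0.19, the standard error 0.059 and the limma adjusted p 0.307.

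Ppp1r1b encodes DARPP-32, which inhibits protein phosphatase 1 once protein kinase A has phosphorylated it. On chromosome 11 from 98348404 to 98357796, it measured 2822, 3902 and 4002 normalized counts for wildtype, and 4646, 4854 and 4315 for the other group. Wildtype replicate 1 was far below the rest, yet the other wildtype libraries were also below all 3 labelled Zmiz1-KO. On the log2 scale the difference was 0.38 with a standard error of 0.16 over all libraries (limma adjusted p = 0.515), and 0.22 with a standard error of 0.051 (limma adjusted p = 0.135) without wildtype replicate 1. Rgs9, on the same chromosome from 109225355 to 109298129 on the minus strand, encodes a regulator that speeds the shut-off of G proteins downstream of dopamine receptors. Rgs9 measured 2265, 2563 and 2946 normalized counts for wildtype against 2808, 3114 and 2609 under the Zmiz1-KO label. The groups overlapped, and the log2 fold change of 0.14 (95% interval -0.13 to 0.41, limma adjusted p = 0.730) was 0.046 without wildtype replicate 1.

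Among the peptide precursors, Penk gives rise to the enkephalins of indirect-pathway neurons. The gene, on chromosome 4 from 4133531 to 4138819 on the minus strand, measured 1498, 2344 and 2322 normalized counts for wildtype and 2639, 2913 and 2758 for the Zmiz1-KO label, without overlap. Among the markers it was the furthest reduced in wildtype replicate 1, 43.2% below the median of the others. The estimate for Penk was 0.46 on the log2 scale, with a standard error of 0.21 (limma adjusted p = 0.547), and without that library 0.25, with a standard error of 0.053 (limma adjusted p = 0.0998). An exon of an antisense gene covers 14.3% of the exonic bases of Penk, and another covers 15.7% of those of Ppp1r1b, and as the counting was not stated to use strand, reads there cannot be assigned. The other 7 markers have no exonic overlap with another gene in GENCODE.

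For both precursors of the direct pathway the groups overlapped. Tac1, the source of substance P, lies on chromosome 6 from 7554879 to 7565834 and measured 435, 766 and 687 normalized counts for wildtype against 679, 821 and 722 for the Zmiz1-KO label. Wildtype replicate 1 was far below the other 5, which were interleaved. Its log2 fold change was 0.27 (95% interval -0.37 to 0.91, limma adjusted p = 0.780) with all libraries and 0.026 (95% interval -0.17 to 0.22) without wildtype replicate 1. Pdyn, the source of the dynorphins, on chromosome 2 from 129686565 to 129699844 on the minus strand, measured 654, 809 and 875 normalized counts for wildtype and 906, 761 and 840 for the other group. The highest and the next to lowest value both came from the Zmiz1-KO label, and the log2 fold change was 0.11 (limma adjusted p = 0.779) with all libraries and -0.01 (95% interval -0.19 to 0.17) without wildtype replicate 1.

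**Figure D2:**
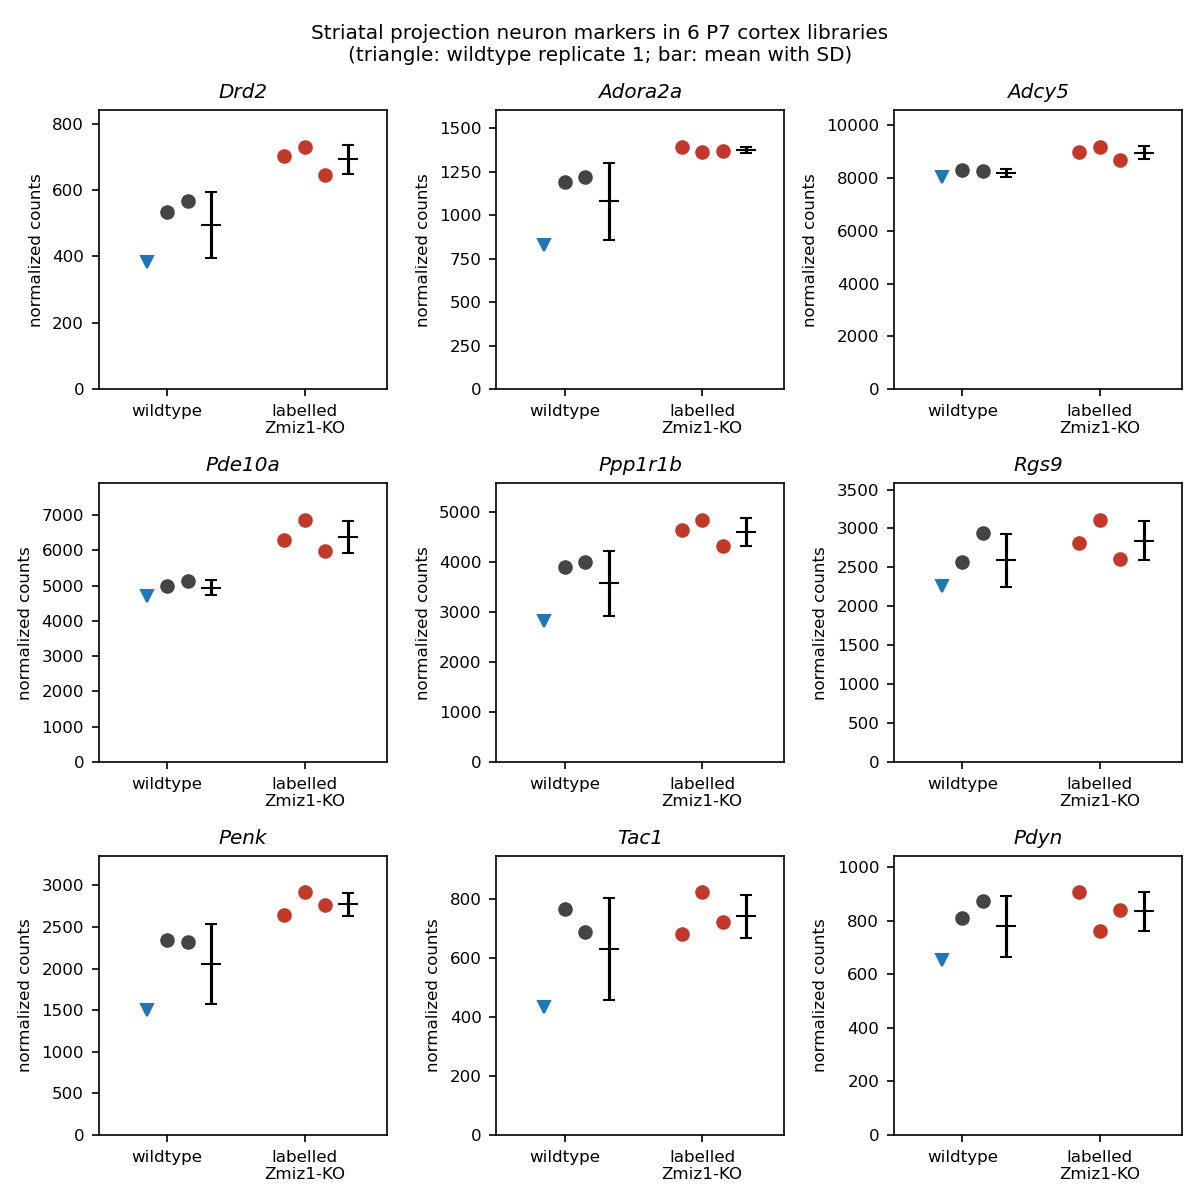
Normalized counts of the 9 markers in each library (points, with wildtype replicate 1 as a triangle) with the mean and SD of each group of 3. Wildtype replicate 1 is the lowest library in every panel, and the 3 libraries labelled Zmiz1-KO lie above all wildtype libraries for Drd2, Adora2a, Adcy5, Pde10a, Ppp1r1b and Penk.

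**Figure D3:**
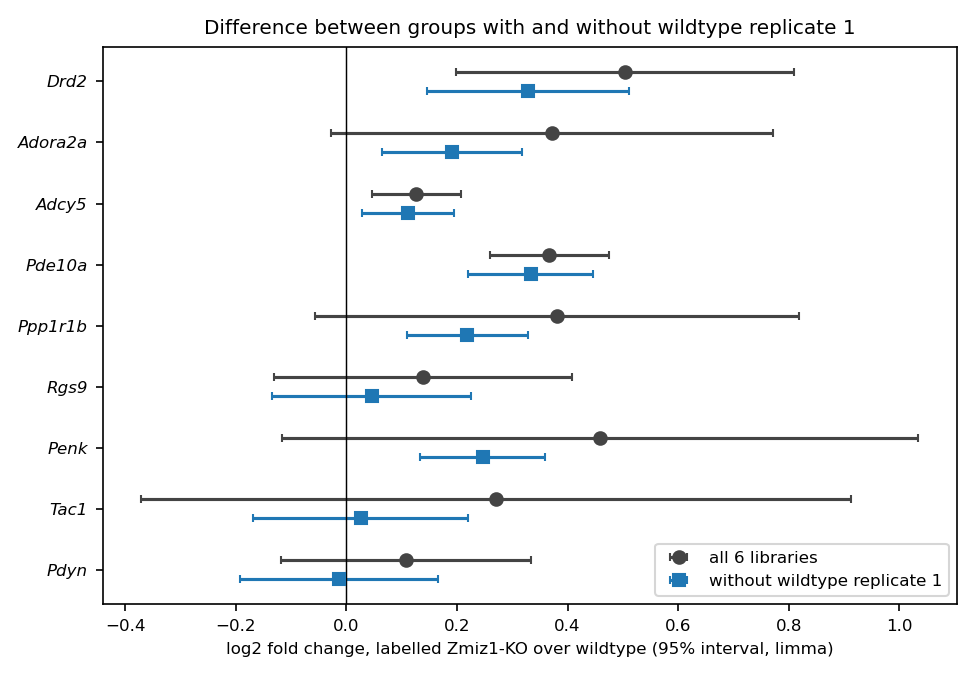
Log2 fold change of the Zmiz1-KO-labelled libraries over wildtype with its 95% interval from limma, with all 6 libraries (circles) and without wildtype replicate 1 (squares). The estimates of Pde10a (0.37 and 0.33) and Adcy5 (0.13 and 0.11) stay close, whereas those of Tac1 and Pdyn move to about 0.

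Since wildtype replicate 1 was the lowest library for every marker, leaving it out could only lower their estimates, and the median log2 fold change over the 9 went from 0.37 to 0.19. Pde10a remained the only marker called, among 0.191% of tested genes called without that library. Within the labelled group, replicate 2 had the highest value of all 6 libraries for 7 of the 9 markers, Adora2a and Pdyn being highest in replicate 1, and replicate 2 was the highest library for 17.2% of all tested genes.

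Summed by role, the indirect-pathway genes Drd2, Adora2a and Penk together gave 4070 and 4110 normalized counts for wildtype replicates 2 and 3, against 4736, 5007 and 4773 for the Zmiz1-KO label. The direct-pathway genes Tac1 and Pdyn together had 1575 and 1562 in those wildtype libraries and 1585, 1582 and 1562 in the labelled ones. In wildtype replicate 1 the sums were 2707 and 1089, so both pathways were low there. The 4 genes of both pathways summed to 17824 in wildtype replicate 1, 19758 and 20331 in replicates 2 and 3, and 21595 to 24016 under the Zmiz1-KO label.

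A ratio of 2 genes within a library does not depend on how that library was scaled. Such ratios were chosen after the values had been seen, and Drd1, the D1 receptor gene, was added to Tac1 and Pdyn as another direct-pathway gene. For Drd1 the groups differed by 0.22 on the log2 scale (limma adjusted p = 0.547), and by 0.063 (limma adjusted p = 0.847) without wildtype replicate 1, its lowest library. Drd2 over Drd1 was 0.611, 0.618 and 0.660 in wildtype replicates 1 to 3 against 0.752, 0.804 and 0.748 for the Zmiz1-KO label. In this ratio wildtype replicate 1 was level with the other wildtype libraries. Penk over Tac1 was 3.44, 3.06 and 3.38 in wildtype and 3.89, 3.55 and 3.82 in the labelled group, again without overlap. Of the 9 ratios of an indirect-pathway gene to a direct-pathway gene, 8 were higher in every Zmiz1-KO-labelled library than in every wildtype library, which held for 7.63% of all ordered pairs of tested genes without a value of 0. The exception was Adora2a over Tac1, at 1.90, 1.56 and 1.78 in wildtype and 2.05, 1.66 and 1.90 in the other group. The 9 ratios share 6 genes and the same libraries, so they are not separate observations, and a ratio shows that 2 genes differed unequally, not which of them changed. Longer lists of each pathway, 6 direct-pathway genes with Drd1 and 6 indirect-pathway genes, differed less. Their median log2 fold changes were 0.17 and 0.18, and 0.07 and 0.13 without wildtype replicate 1. In each list, 2 of the 6 genes were higher in every Zmiz1-KO-labelled library, against 8.10% of tested genes.

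**Figure D4:**
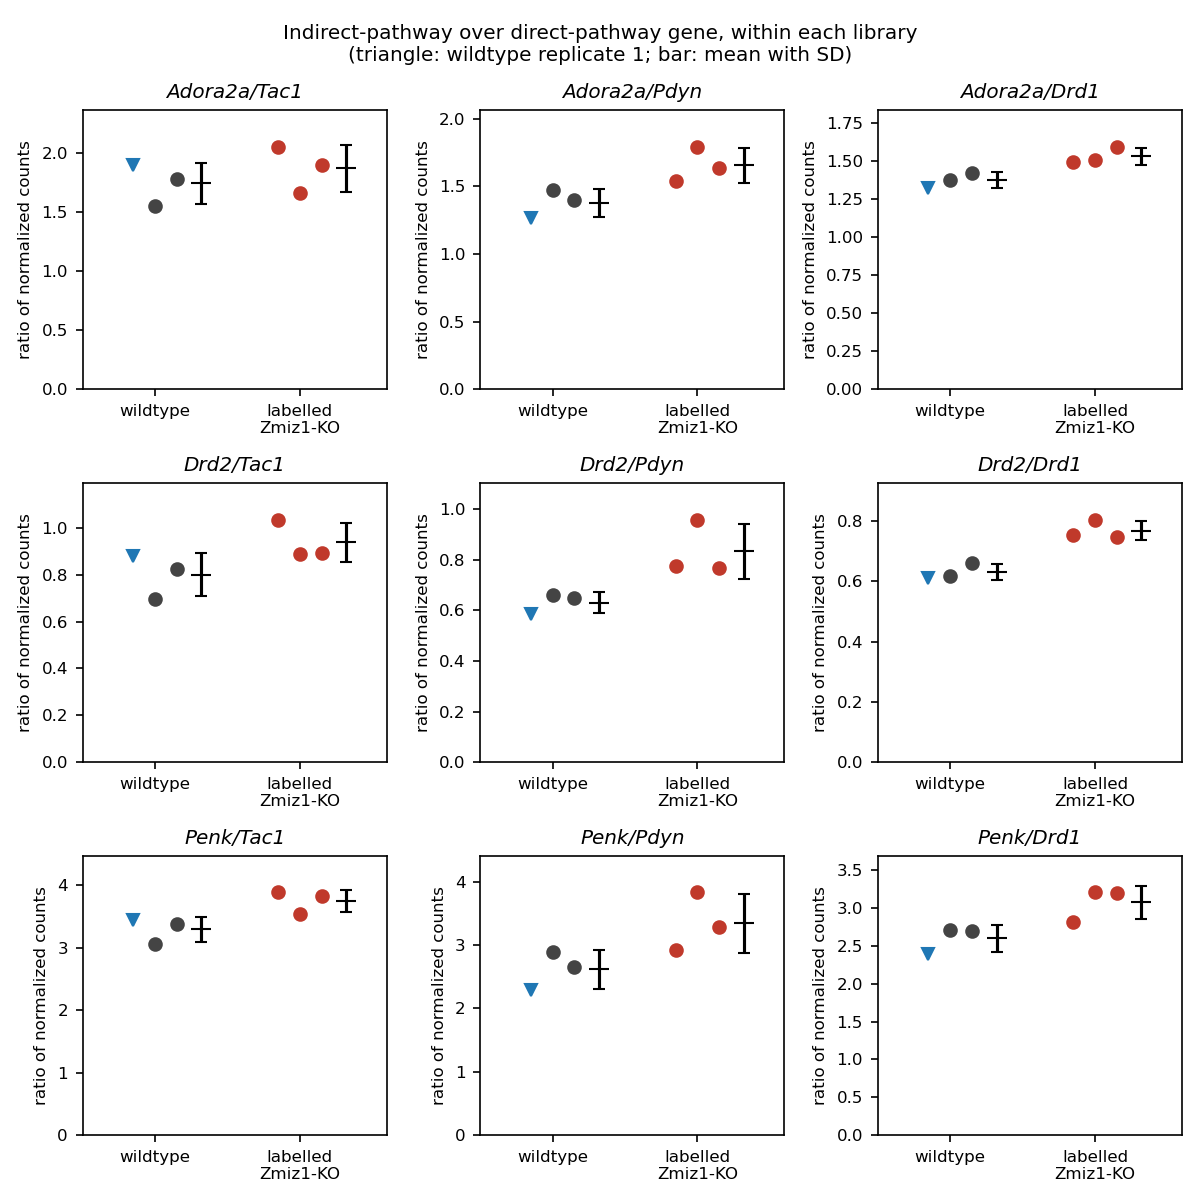
Ratio of the normalized counts of an indirect-pathway gene (Adora2a, Drd2 or Penk) to a direct-pathway gene (Tac1, Pdyn or Drd1) in each library, with the mean and SD of each group of 3 and wildtype replicate 1 as a triangle. The groups do not overlap in 8 of the 9 panels, and wildtype replicate 1 is not the lowest library in the ratios to Tac1.

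Further genes of striatal projection neurons, listed with earlier results of these data known, were mostly higher too. All 32 were tested, and 29 had a positive log2 fold change, with a median of 0.18 and, without wildtype replicate 1, of 0.16. In 15 of the 32 every Zmiz1-KO-labelled library lay above every wildtype library, against 8.10% of tested genes. In none did every one lie below, against 1290 of the 15800 tested genes. Only Pde1b, a calcium- and calmodulin-dependent phosphodiesterase rich in the striatum, passed the threshold. It had 3798, 4190 and 4146 normalized counts in wildtype and 4675, 4930 and 4981 in the labelled group. The log2 difference was 0.27, with a standard error of 0.047 (limma adjusted p = 0.0179). Without wildtype replicate 1 this was 0.22 and no longer passed (limma adjusted p = 0.0775). In wildtype replicate 1, 23 of the 32 had their lowest value, with a median difference of -0.24 on the log2 scale. The steepest was Isl1, a transcription factor of direct-pathway and cholinergic striatal neurons, with 78.4 normalized counts there and 233 to 263 in the other 5 libraries.

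Genes of the wider cyclic AMP machinery lay on both sides of 0. Of 22 other adenylyl cyclases and phosphodiesterases, Pde1b was the only gene called, 10 had a positive log2 fold change and the median was -0.01. Every Zmiz1-KO-labelled library lay above every wildtype one in 2 of the 22 and below in 5. Over the 15800 tested genes this held for 1280 above and 1290 below. Wildtype replicate 1 was the lowest library in 5 and the highest in 6. Genes of protein kinase A, its targets and protein phosphatase 1 had a median log2 fold change of 0.01 over 12, with none called and no gene of non-overlapping groups. The R7 family relatives and partners of Rgs9 had a median of -0.06 over 5 genes, 4 of them negative. Among the dopamine, adenosine, opioid and tachykinin receptors outside the markers, 8 of 11 were tested, none was called and the median was 0.09. Drd3, which had 2.00 to 10.3 normalized counts, was among those too low to test.

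Lists for other cells were measured beside these genes, not all of them exclusive of striatal projection neurons. The list of GABAergic interneuron genes holds Gad1, Gad2, Slc32a1, Dlx1, Dlx2, Dlx5 and Dlx6, which GABAergic neurons of the striatum also express, some of them mainly during development. Genes of this list had mostly positive log2 fold changes, 13 of 14 tested with a median of 0.28 and none called, and 12 of 14 with a median of 0.18 without wildtype replicate 1. Every Zmiz1-KO-labelled library lay above every wildtype library in 5 of the 14, Slc32a1, Dlx5, Dlx6, Lhx6 and Sst, against 8.10% of tested genes. Cortical excitatory genes had a median of -0.12, and of -0.09 without wildtype replicate 1. With all libraries 2 of the 10, Emx1 and Rorb, transcription factors of cortical excitatory neurons, were called lower, against 39 of the 15800 tested genes. In 4 of the 10 every Zmiz1-KO-labelled library lay below every wildtype library, against 1290 of the 15800 tested genes. Emx1, the gene that drives Cre in the Zmiz1-KO mice, had 818, 688 and 784 normalized counts against 532, 473 and 583 (log2 fold change -0.53, limma adjusted p = 0.0150). Only the Zmiz1-KO mice carried that Cre, so for Emx1 an effect of the Cre allele and a change in excitatory neurons cannot be told apart. Rorb had 1776, 1529 and 1627 against 1331, 1156 and 1170 (log2 fold change -0.43, limma adjusted p = 0.00856). Without wildtype replicate 1 the limma adjusted p was 0.0871 for Emx1 and 0.0486 for Rorb. The 4 striatal cholinergic genes had a median of 0.35 with all libraries and -0.18 without wildtype replicate 1, and none was called in either case. Septal, thalamic, hippocampal and claustral lists of 5 genes each had medians of 0.17, 0.01, -0.09 and 0.07, with none called. Without wildtype replicate 1 these medians were 0.055, -0.05, -0.18 and 0.06, in the same order. Choroid plexus genes had a median of -0.40, and of -0.72 without wildtype replicate 1, and none was called in either case. What these cells contributed to the 9 markers was not tested.

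The genes whose levels most resembled the markers over the 6 libraries were sought among those with a log2 range of at least 1, by Pearson's correlation with the mean of the 9 standardized log2 profiles. The 10 closest, in order, were Rxrg, Myo3b, Gm16793, Sp5, Shcbp1l, Scn4b, Pparg, Serpina9, Plac9b and Six3, with correlations of 0.99 to 0.96. Rxrg, a retinoid X receptor gene expressed in striatal neurons, had 596, 941 and 920 normalized counts in wildtype and 1220, 1246 and 1126 in the labelled group. Scn4b, a sodium channel beta subunit also rich in the striatum, had 194, 357 and 416 against 412, 518 and 400. Several of the others were low, with at most 76.1 normalized counts in any library for Gm16793, Sp5, Shcbp1l, Pparg, Serpina9 and Plac9b. These genes were picked for a profile that is itself higher under the Zmiz1-KO label, so no test between the groups is given for them. Over the 5 libraries without wildtype replicate 1 their correlations ran from 0.75 to 0.96. Among the markers themselves, the correlation with the mean profile over those 5 libraries was 0.99 to 1.00 for Pde10a, Ppp1r1b and Drd2, 0.97 for Adcy5, 0.90 for Adora2a and Penk, 0.61 for Rgs9, 0.24 for Tac1 and -0.19 for Pdyn. Each marker is itself part of the mean it is compared with. All of these rest on the same 6 libraries, and 1 library sets much of the range.

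Per kilobase of annotated exon, Penk, Ppp1r1b and Adcy5 had the highest levels in wildtype, at 1258, 1221 and 1141 normalized counts. Rgs9, Pde10a and Adora2a followed at 406, 385 and 352, then Pdyn at 270.0, Drd2 at 194 and Tac1 at 185. These levels use all exons of a gene, and so understate genes with many rarely used exons.

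Starts of transcription are shown for a gene of both pathways, 1 of the indirect and 1 of the direct pathway, namely Pde10a, called in every fit, Drd2, with the largest log2 fold change, and Pdyn, with the smallest. RefSeq windows were matched for 6 of the 9 markers, in 8 windows, on GRCm38.p6. Each sequence gives the 250 bases before a RefSeq start, 5′ to 3′, with a GC box (GGGCGG or CCGCCC) and the short form of the cyclic AMP response element (TGACG or CGTCA) in capitals. The windows lie at chr17:8849735-8849984 in an intron of Pde10a before an internal start on the plus strand, at chr9:49340153-49340402 before Drd2 on the plus strand, and at chr2:129699939-129700188 before Pdyn on the minus strand.
Pde10a: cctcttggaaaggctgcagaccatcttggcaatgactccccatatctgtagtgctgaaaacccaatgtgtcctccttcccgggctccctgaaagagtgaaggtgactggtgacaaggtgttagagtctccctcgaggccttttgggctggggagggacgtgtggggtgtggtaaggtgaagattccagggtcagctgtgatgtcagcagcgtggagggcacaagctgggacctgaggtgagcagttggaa
Drd2: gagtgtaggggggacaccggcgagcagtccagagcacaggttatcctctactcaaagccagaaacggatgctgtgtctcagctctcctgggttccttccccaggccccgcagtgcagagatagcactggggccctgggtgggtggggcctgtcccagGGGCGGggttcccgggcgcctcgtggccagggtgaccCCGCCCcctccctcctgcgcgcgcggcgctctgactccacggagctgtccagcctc
Pdyn: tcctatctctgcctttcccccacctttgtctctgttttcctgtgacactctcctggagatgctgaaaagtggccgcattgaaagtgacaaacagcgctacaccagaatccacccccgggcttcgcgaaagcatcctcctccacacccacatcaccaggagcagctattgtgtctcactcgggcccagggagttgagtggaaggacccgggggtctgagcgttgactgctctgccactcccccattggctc
Drd2 holds 2 GC boxes in its window, and the Pde10a and Pdyn windows shown hold neither motif. Pde10a has another RefSeq window, at chr17:8801495-8801744, which holds 1 GC box and is not printed because it overlaps an annotated exon, and Pdyn has another, at chr2:129698659-129698908, which holds neither motif. Of the other markers with a window, Tac1 holds 2 short elements and 1 GC box, Adcy5 holds 4 GC boxes and Rgs9 holds 1. Over all 32851 RefSeq windows of this length, 32.7% hold a GC box and 17.8% the short element. The full element TGACGTCA is in 1.55% of all windows and in none of the 8 windows of the markers, and these matches of letters are a description, not binding sites.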

How the data were processed

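Total RNA from P7 cortex was sequenced after TruSeq RNA library preparation, with 3 libraries per group, and each library was assigned by its title. The authors aligned reads to mm10 with STAR and compared groups with DESeq2 in Illumina BaseSpace. They deposited a signal table of DESeq2-normalized counts, 1 value per gene and library, with versions and annotation not given in the sources used here. Near-multiples of 1.83 to 2.11 among low values gave each depth as an estimate, but the steps varied between genes, read numbers could not be restored, and no count test was run. Of 24972 genes, 15800 reaching 10 in 3 or more libraries were tested on log2(value + 1) with limma (version 3.58.1, R 4.3.3, intensity trend, robust), two-sided, with Benjamini-Hochberg adjustment over all tested genes and a threshold of 0.05. Group means and SD are of normalized counts, and the fits were tested on simulated data. A fold change on this scale understates that of low genes.

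The markers and the gene lists were chosen with earlier results of these data known. Named genes are the 9 markers, Zmiz1, list genes called or among the 10 with the largest difference of wildtype replicate 1, and the 10 most similar genes. Slc17a7, Slc5a7, Drd1 and the ratios were added after values were seen. Coordinates are from GENCODE release M21 on GRCm38, the build of the files, and promoter windows are from RefSeq. Alternatives were other scalings, pseudocounts and filters, limma-voom, no robust estimation, leaving out single libraries, and a replicate block.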

Additional observations from a re-analysis of the deposited data

How the results depend on the processing

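Pde10a passed the threshold in all 16 alternative fits, with log2 fold changes of 0.31 to 0.41 and limma adjusted p values of 0.0010 to 0.0298, and it was the only marker called in each. Of the 144 alternative estimates for the 9 markers, 143 kept their direction and their side of the threshold. The exception was Pdyn, at -0.0136 without wildtype replicate 1, in a range of -0.0136 to 0.196 with each library left out. The median difference of wildtype replicate 1 over the markers stayed between -0.63 and -0.61 under other scalings and pseudocounts. Over all tested genes, 65 were called, against 17 without robust estimation and 12 to 152 with each library left out (30 without wildtype replicate 1, 17 and 12 without replicates 1 and 3 labelled Zmiz1-KO, 152 without replicate 2 labelled Zmiz1-KO). The cause of these changes was not tested. With the replicate block, 168 were called, Pde10a the only marker among them. Deviations of libraries with the same replicate number correlated at -0.005, -0.113 and -0.006, so the numbers were not taken to pair the libraries. Pde1b fell short without robust estimation, without wildtype replicate 1 and without replicate 1 or 3 labelled Zmiz1-KO (limma adjusted p = 0.0755, 0.0775, 0.0511 and 0.172). With 3 libraries a group, the precision of the markers is limited by the spread between libraries. Over all libraries the standard error was 0.14 for Drd2 and 0.24 for Tac1, against 0.16 and 0.21 for the higher genes Ppp1r1b and Penk. The part of depth in these was not tested.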
